A study of Gallus gallus with 31 samples.

Results

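The comparison asked whether the contrast between the fat around the heart and the abdominal fat pad was the same in 2 lines of male chickens. It used RNA-seq values of 23 of the 31 libraries of the series, those of a trial named Fall 13. They came from 4 Ross cardiac, 4 Ross abdominal, 8 Illinois cardiac and 7 Illinois abdominal fat samples of control birds killed at day 42. The series' text describes male Ross 708 broilers, a commercial meat line, and the labels name the other line only as Illinois. Birds of every group are labelled as controls raised on litter with free access to feed and water. Neither the feed nor a treatment separated the groups in the labels. The labels do not say whether a cardiac and an abdominal library came from the same bird or whether birds were pooled. The p-values below therefore measure the spread between these libraries. In whole tissue, fewer cells of a type and less RNA per cell cannot be told apart.

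For each gene, the depot effect of a line was its mean log2(FPKM + 1) in cardiac fat minus that in abdominal fat. The quantity reported is the Ross depot effect minus the Illinois depot effect. It equals the Ross minus Illinois gap in cardiac fat minus the same gap in abdominal fat. A positive value means that cardiac fat stood higher relative to abdominal fat in Ross than in Illinois birds. FPKM is the number of sequenced fragments scaled to transcript length and library size. Of 564 genes in the table, 427 had at least 1 FPKM in at least 4 of the 23 libraries and were tested. The table was sorted by Entrez number and covered 1 run of such numbers, so counts and shares of genes do not stand for the genome.

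Fat depots differ in the fat cells they hold and in the stromal, vascular and immune cells between them. Abdominal fat of broilers is a storage depot, while fat around the heart lies against muscle and vessels. Fat cells carry fatty acids with binding proteins such as FABP4 and are rich in caveolae, small pits of the cell membrane built from CAV1. Stromal and vascular cells of fat secrete chemokines and matrix, and they receive Wnt signals through frizzled receptors.

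The lines differed in the depot effect of 6 genes, and each was higher in Ross birds. They were CXCL12, CAV1, RPL35, PCBD2, MRPL23 and PARK7. With limma and Benjamini-Hochberg adjustment over the 427 genes, these 6 genes (1.41%) passed at an adjusted p below 0.05, and 0 genes passed in the negative direction. At an unadjusted p below 0.05 there were 69 genes with a positive (16.2%) and 17 with a negative difference (3.98%). In all, 274 of 427 differences (64.2%) were positive, with a median of 0.18. Each library can also be scaled to a common level before the test, which moved that median to 0.00026 with upper quartile scaling, 0.04 with quantile normalization and -0.07 with scaling by the median ratio. The calls then numbered 6 positive and 2 negative, 5 positive and 4 negative, and 5 positive and 3 negative in that order of scalings. In the same order, 50.1%, 52.7% and 45.2% of the differences were positive. An unadjusted p below 0.05 was reached by 95, 90 and 94 genes, of which 38, 33 and 50 were negative. The excess of positive differences as deposited thus depended on the scaling. Relative to the median of all genes on the values as deposited, the 6 differences were 2.21 for CXCL12, 1.402 for CAV1, 1.35 for RPL35, 1.17 for PCBD2, 1.07 for MRPL23 and 1.06 for PARK7.

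CXCL12 (Entrez 395180), a chemokine made by stromal cells that attracts leukocytes and progenitor cells through the receptor CXCR4, had the largest of these differences. Its level was 24.03, 26.6, 44.6 and 44.2 FPKM in the 4 Ross cardiac libraries and 3.71, 2.34, 5.17 and 4.53 FPKM in the 4 Ross abdominal libraries. In Illinois fat it ran from 24.1 to 84.9 FPKM with a median of 52.9 in cardiac libraries, and from 17.6 to 50.3 FPKM with a median of 34.6 in abdominal libraries. All 4 Ross abdominal libraries lay below every library of the other 3 groups, while the lines overlapped in cardiac fat. The difference of depot effects was 2.39 on the log2 scale (SE 0.46, 95% confidence interval 1.43 to 3.35, adjusted p = 0.00697). The line gap was -2.84 in abdominal fat and -0.44 in cardiac fat. Ross libraries of the other trial, Fall 12, had 61.2 ± 11.9 FPKM in cardiac and 54.3 ± 23.1 FPKM in abdominal fat (SD, n = 4 each). With them in place of the Ross libraries of Fall 13, the difference was -0.20 (adjusted p = 0.839). CXCL12 was also not called over all 31 libraries with a trial term, where the other 5 genes were. Of 9 tested chemokines, cytokines and receptors, CXCL12 was the 1 called, and 4 of 9 were positive. Their median was -0.11, or -0.46 to -0.33 after scaling. Over all 427 tested genes, 1.41% were called and 64.2% were positive.

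CAV1 (Entrez 373996), the scaffold protein of caveolae, showed the other arrangement in abdominal fat. Its level was 345, 296, 181 and 214 FPKM in Ross cardiac libraries and 272, 279, 296 and 147 FPKM in Ross abdominal libraries. In Illinois fat it ran from 107 to 234 FPKM with a median of 160.3 in cardiac libraries, and from 401 to 578 FPKM with a median of 475 in abdominal libraries. Illinois abdominal libraries lay above every other library, and the 2 Ross depots overlapped. The difference was 1.58 (SE 0.33, 95% confidence interval 0.90 to 2.27, adjusted p = 0.0114), with a line gap of 0.61 in cardiac fat and -0.97 in abdominal fat. It was 0.97 with quantile normalization, and the call was lost (adjusted p = 0.120).

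A pair of the called genes belong to ribosomes. RPL35 (Entrez 374133), a protein of the large subunit of the cytosolic ribosome, had 1991, 1955, 2962 and 2494 FPKM in Ross cardiac libraries and 674, 998, 799 and 1128 FPKM in Ross abdominal libraries. Illinois libraries held 1178 to 2433 FPKM with a median of 1923 in cardiac fat and 1321 to 3398 FPKM with a median of 2077 in abdominal fat. As for CXCL12, Ross abdominal libraries lay below all others. The difference was 1.53 (SE 0.36, 95% confidence interval 0.79 to 2.27, adjusted p = 0.0206). It missed the threshold under each of the 3 scalings (0.67 to 1.31, adjusted p 0.0533 to 0.166) and without Ross abdominal library 1195 (adjusted p = 0.0508), Ross cardiac library 1206 (adjusted p = 0.0627) or Ross cardiac library 1207 (adjusted p = 0.0590). MRPL23 (Entrez 374255), a protein of the mitochondrial ribosome, had 86.3, 94.7, 73.1 and 83.4 FPKM in Ross cardiac libraries and 43.0, 41.3, 36.4 and 36.1 FPKM in Ross abdominal libraries. In Illinois fat it ran from 35.8 to 67.5 FPKM with a median of 50.9 in cardiac and from 40.3 to 80.6 FPKM with a median of 54.7 in abdominal libraries. Ross cardiac libraries lay above all Illinois cardiac libraries, and the lines overlapped in abdominal fat. The difference was 1.25 (SE 0.27, 95% confidence interval 0.68 to 1.81, adjusted p = 0.0140), and with the Ross libraries of Fall 12 in place it was 0.92 (adjusted p = 0.0859).

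PARK7 and PCBD2 separated the lines in both depots and in opposite directions. PARK7 (Entrez 395277) encodes DJ-1, a redox-sensing protein that protects cells from oxidative stress. It had 97.9, 84.2, 108 and 85.2 FPKM in Ross cardiac libraries and 55.2, 50.0, 55.3 and 48.6 FPKM in Ross abdominal libraries. Illinois libraries held 42.9 to 69.0 FPKM with a median of 56.5 in cardiac fat and 57.2 to 105 FPKM with a median of 75.7 in abdominal fat. Ross libraries lay above the Illinois ones in cardiac fat and below them in abdominal fat, with no overlap in either depot. The difference was 1.24 (SE 0.23, 95% confidence interval 0.76 to 1.73, adjusted p = 0.00697), and with the Ross libraries of Fall 12 in place it was 1.38 (adjusted p = 0.00789). PCBD2 (Entrez 374030), an enzyme that recycles tetrahydrobiopterin, the cofactor of aromatic amino acid hydroxylases, had 65.9, 64.4, 77.4 and 68.6 FPKM in Ross cardiac libraries. It had 28.4, 38.5, 33.5 and 31.001 FPKM in Ross abdominal libraries. In Illinois fat it ran from 25.4 to 60.7 FPKM with a median of 42.7 in cardiac and from 39.3 to 67.8 FPKM with a median of 50.1 in abdominal libraries. The lines did not overlap in either depot. The difference was 1.35 (SE 0.31, 95% confidence interval 0.71 to 1.99, adjusted p = 0.0198), and it missed the threshold without Ross cardiac library 1206 (1.29, adjusted p = 0.0517).

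**Figure D1:**
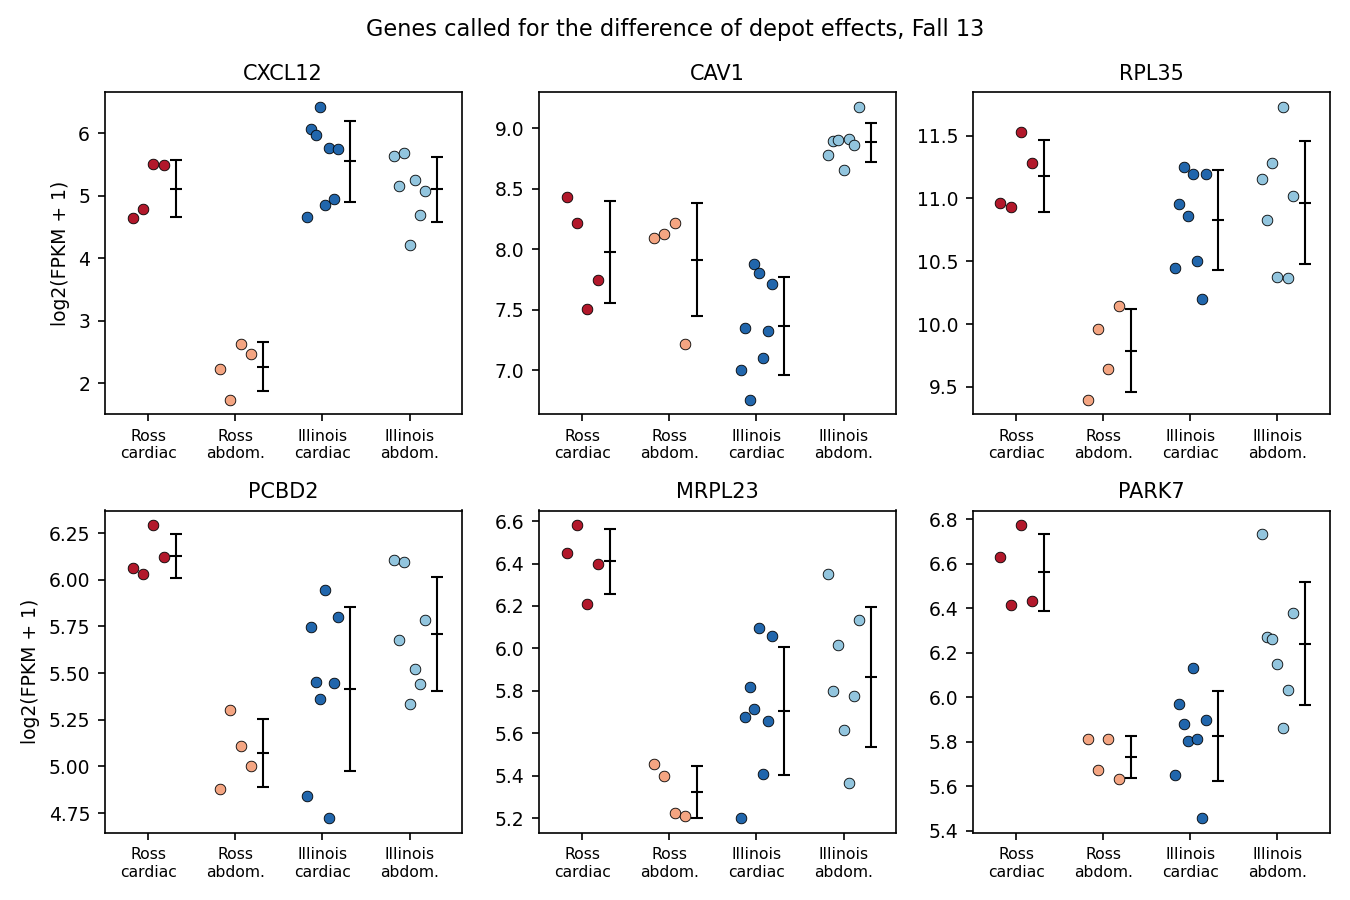
Expression of the 6 called genes as log2(FPKM + 1), 1 point per library, by line and depot, with bars for the mean and SD of 4 Ross cardiac, 4 Ross abdominal, 8 Illinois cardiac and 7 Illinois abdominal libraries. Axes differ between panels and do not start at 0. Ross abdominal libraries are the lowest group for CXCL12 and RPL35, and Illinois abdominal libraries the highest for CAV1.

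The line gaps of the 6 genes in each depot are given as a description, since a gene is called where its cardiac gap stands far above its abdominal gap, which favours a negative abdominal gap, a positive cardiac gap and opposite signs. All 6 were lower in Ross than in Illinois abdominal fat by their means, and 5 of 6 were higher in Ross than in Illinois cardiac fat, the exception being CXCL12. The larger of the 2 line gaps lay in abdominal fat for 3 genes, CXCL12, CAV1 and RPL35, and in cardiac fat for the other 3. In 5 of 6 genes the depot effects of the lines had opposite signs. Over the 427 genes the larger gap lay in abdominal fat for 236, opposite signs were seen in 171, and 249 were lower in Ross abdominal fat. Ross and Illinois libraries did not overlap in abdominal fat in 35 genes with Ross below and 12 with Ross above, 11% of the tested genes together. In cardiac fat the numbers were 4 below and 22 above, or 6.09%.

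**Figure D2:**
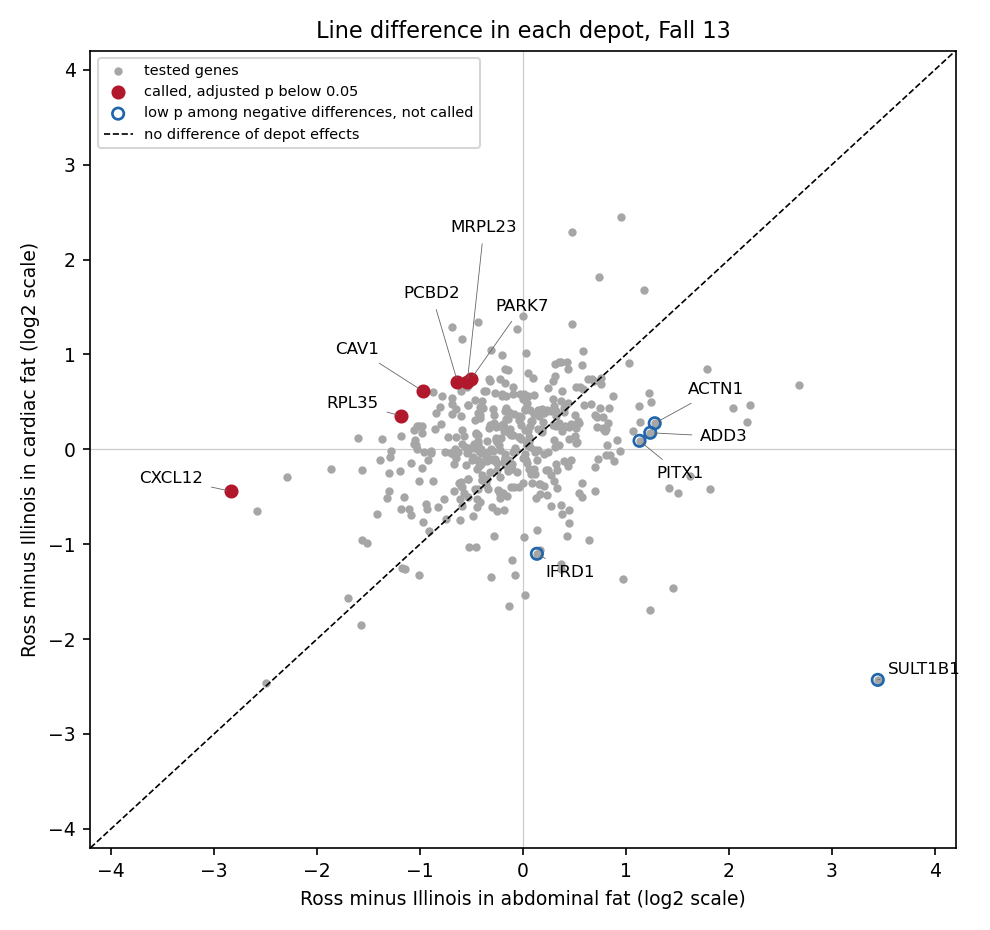
Ross minus Illinois line gap in cardiac fat (vertical) against the same gap in abdominal fat (horizontal), in log2(FPKM + 1), for the tested genes. The vertical distance from the dashed diagonal is the difference of depot effects. The 6 called genes, in red, lie above the diagonal and left of 0, and 1 gene, EEF1A1, falls outside the axes. SULT1B1 at the lower right was listed at the floor of 0.001 in all 4 Ross cardiac libraries.

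Depth, tissue make-up and single libraries moved with this comparison. Relative depth, read from the steps between low values, averaged 0.976 in Ross cardiac, 0.617 in Ross abdominal, 1.24 in Illinois cardiac and 1.45 in Illinois abdominal libraries. In abdominal fat the depths of the lines did not overlap (0.523 to 0.749 in Ross, 1.18 to 1.61 in Illinois), so line and depth cannot be told apart there. With relative depth as a covariate, limma called 0 genes, and 41 had an unadjusted p below 0.05, 3 of them negative. The differences of the 6 genes were then 1.17 to 2.70, with adjusted p-values of 0.0641 to 0.348. Leaving out Illinois abdominal library 1096 or Illinois cardiac library 1110 gave 17 called genes each, Ross cardiac library 1205 gave 14, Illinois cardiac library 1111 gave 11 and Ross cardiac library 1206 gave 4. The 6 calls held without either of the 2 Illinois cardiac libraries of highest muscle signal, 1107 and 1112. They also held without both, which gave 8 called genes, 7 of them positive. Lower sums of 4 muscle genes stayed in the other libraries. These reached 22.5 FPKM in Ross cardiac and 9.30 FPKM in Ross abdominal, against 0.396 FPKM in Illinois abdominal libraries. The part of that signal in the calls was not tested.

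**Figure D3:**
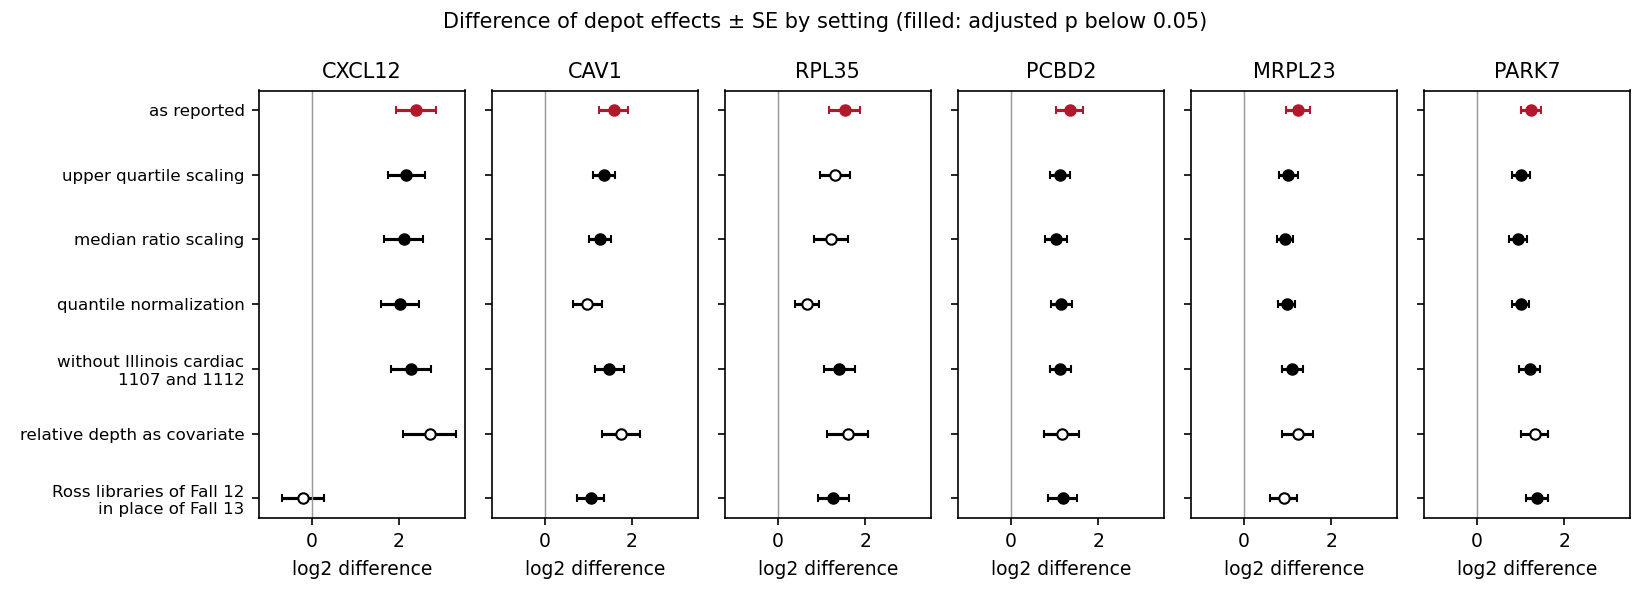
Difference of depot effects of the 6 called genes ± SE in log2 units under 7 settings, with filled points where the adjusted p was below 0.05. CXCL12 lies at -0.20 with the Ross libraries of Fall 12 in place and between 2.03 and 2.70 under the other settings. Every point is open with relative depth as a covariate.

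The tissue labels were set against markers. Genes of fat cells in the table (FABP4, CAV1 and DBI) were abundant in all 23 libraries, with summed levels of 9308 to 27549 FPKM in Ross cardiac, 14817 to 17138 in Ross abdominal, 2338 to 16084 in Illinois cardiac and 17704 to 31777 FPKM in Illinois abdominal fat. Of the listed heart and skeletal muscle markers, 4 were in the table (CASQ2, MYH7B, MYOD1 and MYOG). Their summed level was 0.916 to 22.5 FPKM in Ross cardiac, 0.935 to 9.30 in Ross abdominal, 0.208 to 190.4 in Illinois cardiac and 0.0231 to 0.396 FPKM in Illinois abdominal libraries. The highest sums belonged to Illinois cardiac libraries 1107 and 1112. MYOG was at the floor in all 4 Ross abdominal libraries. The 2 tested muscle genes had negative differences, -2.24 for CASQ2 (SE 1.10, adjusted p = 0.241) and -2.92 for MYH7B (adjusted p = 0.254), and neither passed the test. CASQ2, a calcium store of heart muscle, had 0.834, 3.59, 2.01 and 0.812 FPKM in Ross cardiac and 0.672, 5.10, 3.57 and 3.12 FPKM in Ross abdominal libraries. Its range was 0.0804 to 36.3 FPKM with a median of 1.10 in Illinois cardiac and 0.001 to 0.206 FPKM with a median of 0.001 in Illinois abdominal libraries.

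Fat cell genes came next. Of the 3 that could be tested, CAV1 passed, and all 3 had positive differences as deposited. Their median was 1.58, the value of CAV1, and the lowest was 0.27, for DBI. Under upper quartile and median ratio scaling the median was 1.36 and 1.27, with 3 and 2 of 3 positive. With quantile normalization it was 0, the value of FABP4. Among all 427 tested genes, 1.41% were called and 64.2% were positive as deposited, with a median of 0.18. FABP4, the fatty acid carrier of fat cells, had 25919, 25932, 8570.1 and 17828 FPKM in Ross cardiac libraries and 13607, 15304, 14045 and 13782 FPKM in Ross abdominal libraries. Illinois libraries held 1959 to 15238 FPKM with a median of 8635 in cardiac fat and 16182 to 29593 FPKM with a median of 23773 in abdominal fat. The lines did not overlap in abdominal fat, where Ross was lower, and overlapped in cardiac fat. The difference was 1.98 (SE 0.59, 95% confidence interval 0.75 to 3.20) and missed the threshold (adjusted p = 0.0692). It passed in 5 of 39 alternative settings and was 0 with quantile normalization, which gives the top gene of each library the same value. FABP4 made up 21.0% to 47.8% of the FPKM summed over the 564 genes in Ross cardiac and 34.0% to 36.5% in Ross abdominal libraries. In Illinois libraries it made up 8.17% to 34.2% in cardiac and 38.3% to 48.6% in abdominal fat. The sum leaves out genes beyond the table, so these are not shares of a whole library. The part of FABP4 in the values of other genes was not tested.

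Among 6 tested regulators of fat cell formation, 0 were called, 0 had an unadjusted p below 0.05, and 4 were positive. Their median was 0.40, or 0.15 to 0.26 after scaling. These counts stand beside 1.41% called and 64.2% positive over all 427 tested genes, with a median of 0.18. At an unadjusted p below 0.05, 16.2% of all tested genes were positive and 3.98% were negative. PPARG, the nuclear receptor that drives fat cell formation, had 67.4, 59.5, 28.2 and 41.2 FPKM in Ross cardiac and 81.3, 89.5, 65.9 and 73.2 FPKM in Ross abdominal libraries. Illinois libraries held 12.0 to 38.2 FPKM with a median of 29.2 in cardiac fat and 38.0 to 92.9 FPKM with a median of 58.4 in abdominal fat. The lines overlapped in both depots. Its difference of 0.50 did not pass (95% confidence interval -0.38 to 1.38, adjusted p = 0.558). TBX20, a T-box factor of the developing heart, was low in abdominal fat of both lines, with 0.0688 to 0.471 FPKM in Ross and 0.001 to 0.116 FPKM in Illinois libraries. In cardiac fat it ran from 8.40 to 12.0 FPKM in Ross and from 6.94 to 35.0 FPKM in Illinois libraries. Its difference was -0.64 (95% confidence interval -1.50 to 0.22, adjusted p = 0.398), and 0 of 5 tested T-box factors were called by limma, with 0 below an unadjusted p of 0.05.

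A further 32 genes had an adjusted p between 0.05 and 0.1, which with the 6 called genes makes 38 genes (8.90%), 37 of them positive. The exception was SULT1B1. Selection by a high difference favours a lower Ross abdominal mean and opposite signs, so the next counts are a description. Of these 38, 36 were lower in Ross than in Illinois abdominal fat by their means, and 27 had depot effects of opposite sign in the lines. The positive differences ran from 0.86 to 2.39. Those among them that belong to a described gene list are named below, chosen after their values were seen, and none passed the test on the values as deposited in the 23 libraries. Over all 31 libraries with a trial term, NRP2, SMAD3, FZD6, S100A6, CELF1, QSOX1 and RGS4 passed (adjusted p 0.00734 to 0.0366). FABP4, described above, passed there too (1.73, adjusted p = 0.0295). With the Ross libraries of Fall 12 in place, QSOX1 alone of these passed (1.48, adjusted p = 0.0308).

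Wnt receptors were among them. All 7 tested frizzled genes, the cell surface receptors of Wnt ligands, had positive differences, from 0.63 to 1.66 with a median of 0.85. None was called, and 3 had an unadjusted p below 0.05. Over all 427 tested genes, 64.2% were positive, and 16.2% were positive with an unadjusted p below 0.05. The 7 frizzled genes stayed positive under each of the 3 scalings, with medians of 0.55 to 0.81. FZD6 had 16.1, 14.6, 7.87 and 7.77 FPKM in Ross cardiac and 8.85, 7.04, 13.3 and 5.73 FPKM in Ross abdominal libraries. Illinois libraries held 4.83 to 27.3 FPKM with a median of 12.9 in cardiac fat and 23.5 to 49.6 FPKM with a median of 32.9 in abdominal fat. Ross abdominal libraries lay below all Illinois abdominal ones, and the difference was 1.66 (SE 0.46, adjusted p = 0.0578). FZD1 and FZD4 had differences of 1.47 and 1.00 (adjusted p = 0.0813 and 0.0944), and both overlapped between the lines in each depot. FZD1 had 20.8, 9.80, 33.4 and 9.73 FPKM in Ross cardiac libraries and 4.07, 0.602, 0.453 and 2.34 FPKM in Ross abdominal libraries, against medians of 15.4 FPKM in Illinois cardiac and 5.41 FPKM in Illinois abdominal fat. Of all 10 tested Wnt pathway genes, 9 were positive, with a median of 0.69, beside 0.18 over all genes, and after scaling 8 or 9 were positive with a median of 0.43 to 0.63. TCF7, a transcription factor at the end of the pathway, was the exception, at -1.003 (adjusted p = 0.391).

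RGS proteins, which shorten signalling by G-protein-coupled receptors, had a narrow range. The 4 tested members, RGS2, RGS3, RGS4 and RGS19, had differences of 0.99 to 1.21. None was called, and all 4 had an unadjusted p below 0.05. Among all 427 tested genes, 1.41% were called, and 16.2% were positive with an unadjusted p below 0.05. RGS4 had 20.6, 21.6, 26.3 and 13.4 FPKM in Ross cardiac and 19.4, 22.6, 27.1 and 13.2 FPKM in Ross abdominal libraries. Illinois libraries held 6.68 to 23.4 FPKM with a median of 13.0 in cardiac fat and 26.0 to 46.4 FPKM with a median of 28.0 in abdominal fat. The 2 Ross depots overlapped and the 2 Illinois depots did not. Its difference was 1.21 (SE 0.39, adjusted p = 0.0813), and that of RGS2 was 1.07 (SE 0.37, adjusted p = 0.0944). The list of 9 adrenergic, adenosine and G-protein regulators that holds them had 7 positive members and a median of 0.99, or 0.69 to 0.78 after scaling. As deposited, 64.2% of all tested genes were positive, with a median of 0.18.

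Redox genes held 1 called member, PARK7, among 4 tested, with 3 positive and a median of 1.11, or 0.75 to 0.89 after scaling. Among all 427 tested genes, 1.41% were called and 64.2% were positive as deposited, with a median of 0.18. QSOX1, an oxidase that forms disulphide bonds in secreted proteins, had 93.3, 37.3, 40.04 and 35.0 FPKM in Ross cardiac and 45.9, 30.5, 36.8 and 23.0 FPKM in Ross abdominal libraries. Illinois libraries held 9.52 to 31.4 FPKM with a median of 19.5 in cardiac and 20.4 to 45.3 FPKM with a median of 36.0 in abdominal fat. All 4 Ross cardiac libraries lay above the Illinois cardiac ones, and the difference was 1.33 (SE 0.43, adjusted p = 0.0813). GPX4, which removes lipid peroxides, had 2912, 2952, 2133 and 1860.5 FPKM in Ross cardiac and 2486, 2981, 2867 and 3007 FPKM in Ross abdominal libraries. It ran from 714 to 1829 FPKM with a median of 1269 in Illinois cardiac libraries, which lay below every other library. In Illinois abdominal libraries it ran from 2236 to 3906 FPKM with a median of 2515. The difference was 0.98 (SE 0.34, adjusted p = 0.0944), with a line gap of 1.01 in cardiac fat and 0.03 in abdominal fat. SOD2, the superoxide dismutase of mitochondria, had a difference of -0.27 (adjusted p = 0.675).

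Matrix and guidance genes followed. Of 12 tested genes of the extracellular matrix and fibroblasts, 10 were positive, 0 were called and 2 had an unadjusted p below 0.05. Their median was 0.60 as deposited and 0.30 to 0.39 after scaling. Over all 427 tested genes, 1.41% were called and 64.2% were positive, with a median of 0.18, and 16.2% were positive with an unadjusted p below 0.05. TIMP2, an inhibitor of matrix metalloproteinases, had a difference of 1.47 (SE 0.45, adjusted p = 0.0692), with 210.4 ± 116 FPKM in Ross abdominal fat and 355 ± 82.8 FPKM in Illinois abdominal fat (SD, n = 4 and 7). S100A6, a calcium-binding protein of fibroblasts, had a difference of 1.75 (SE 0.50, adjusted p = 0.0630). Its level was 1198, 695, 1458 and 845 FPKM in Ross cardiac libraries, above the 244 to 679 FPKM of Illinois cardiac libraries, with 365, 316, 557 and 414 FPKM in Ross abdominal libraries and 251 to 1481 FPKM in Illinois abdominal libraries. NRP2, a receptor for semaphorins and VEGF, had 8.08, 9.15, 18.1 and 8.52 FPKM in Ross cardiac and 6.78, 7.26, 1.02 and 1.3999 FPKM in Ross abdominal libraries. Illinois libraries held 7.06 to 14.9 FPKM in cardiac fat and 7.66 to 16.1 FPKM in abdominal fat, so the lines did not overlap in abdominal fat. Its difference was 1.72 (SE 0.46, adjusted p = 0.0578), and it passed in 12 of 39 alternative settings. SMAD3, which carries TGF-beta signals to the nucleus, had a difference of 0.95 (SE 0.26, adjusted p = 0.0578), and Ross abdominal libraries with 8.90 to 10.4 FPKM lay below Illinois abdominal ones with 11.9 to 19.3 FPKM. Of 15 tested genes of the BMP, activin and TGF-beta pathway, 11 were positive and 0 were called, 2 of them below an unadjusted p of 0.05, with a median of 0.26. After scaling, 8 or 9 of 15 were positive and the median was 0.05 to 0.13. Over all genes, 45.2% to 52.7% were then positive, with medians of -0.07 to 0.04, so this list lay near all genes. The 2 RNA-binding proteins in this range were CELF1 at 1.93 (adjusted p = 0.0800) and QKI at 1.07 (adjusted p = 0.0829), both regulators of splicing. Their list did not share this direction. Of 6 tested RNA-binding and splicing genes, 3 were positive and 0 were called, with a median of -0.12. After scaling, 2 or 3 were positive and the median was -0.62 to -0.34.

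**Figure D4:**
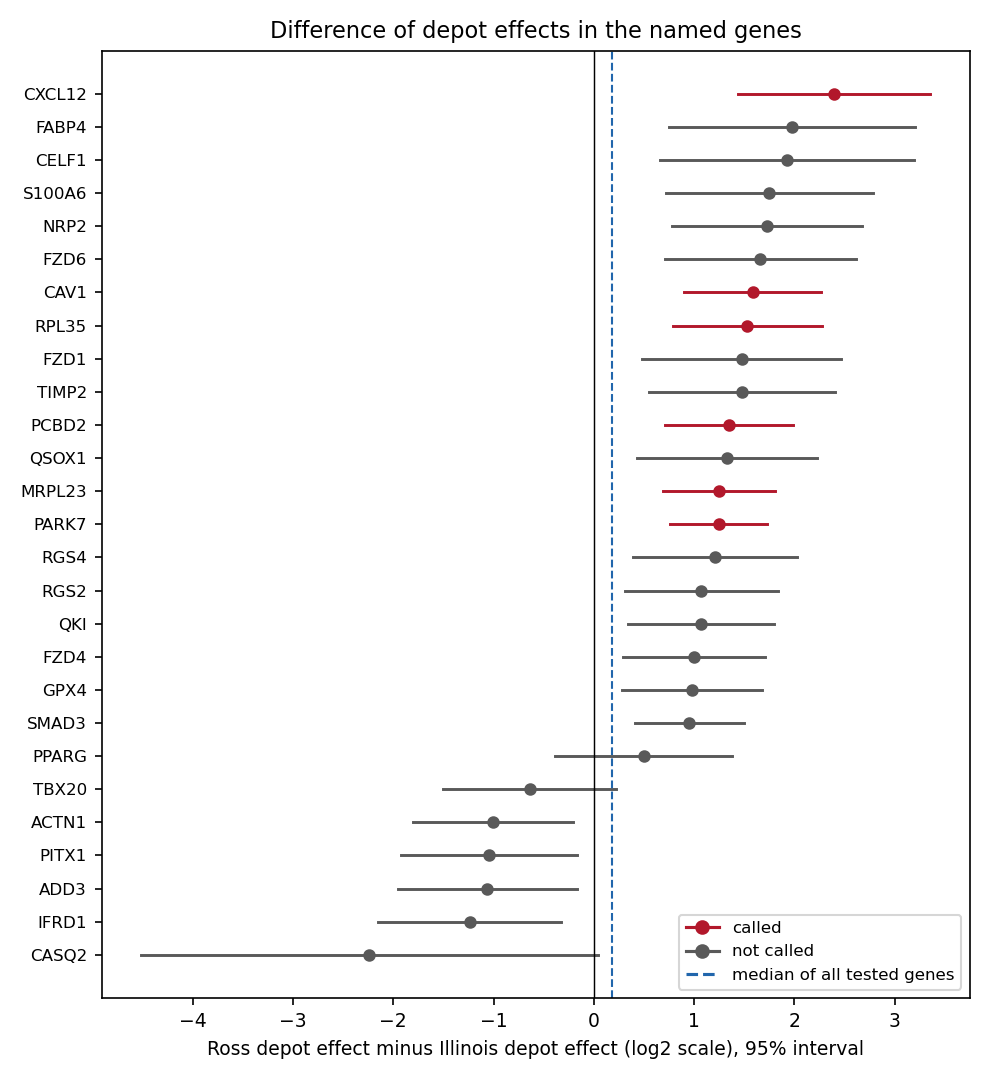
Difference of depot effects of the named genes in log2 units with 95% confidence intervals, called genes in red, and a dashed line at the median of all tested genes, 0.18. Intervals of the called genes start at 0.68 or above. SULT1B1 is left out because it was at the floor in a whole group.

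Ribosomal and endothelial genes were set beside RPL35, which was itself not called under any of the 3 scalings. All 7 tested genes of the list of ribosomal proteins and elongation factors, RPL35 included, had positive differences as deposited. Their median was 0.47, and the 1 call was RPL35. Among all 427 tested genes, 1.41% were called and 64.2% were positive as deposited, with a median of 0.18. The median was 0.24, 0.02 and 0.16 under upper quartile, quantile and median ratio scaling, with 6, 4 and 6 of 7 positive. Differences of RPL6, RPL5, RPL22 and RPSA lay between 0.17 and 0.47, and RPL39 had 1.78 with an SE of 4.05 (adjusted p = 0.859), and none of them passed. RPL36 and RPL14, tested but not in the list, had 0.69 (adjusted p = 0.200) and 0.08 (adjusted p = 0.944). The 8 tested ribosomal proteins together had 8 positive differences and a median of 0.45 as deposited, against 6, 3 and 6 positive and medians of 0.23, -0.14 and 0.14 under the same 3 scalings. With quantile normalization RPL14 was called as lower in Ross (-0.80, adjusted p = 0.0216). EEF1A1, a translation elongation factor, had the largest positive difference, 4.37, with an SE of 1.76 (adjusted p = 0.165). The 6 tested endothelial genes had 3 positive differences and a median of 0.13, which was negative under each scaling. None was called, and 1 had an unadjusted p below 0.05. Whether ribosomal protein genes or EEF1A1 have near-identical copies that share fragments was not tested, so their values carry that uncertainty.

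**Figure D5:**
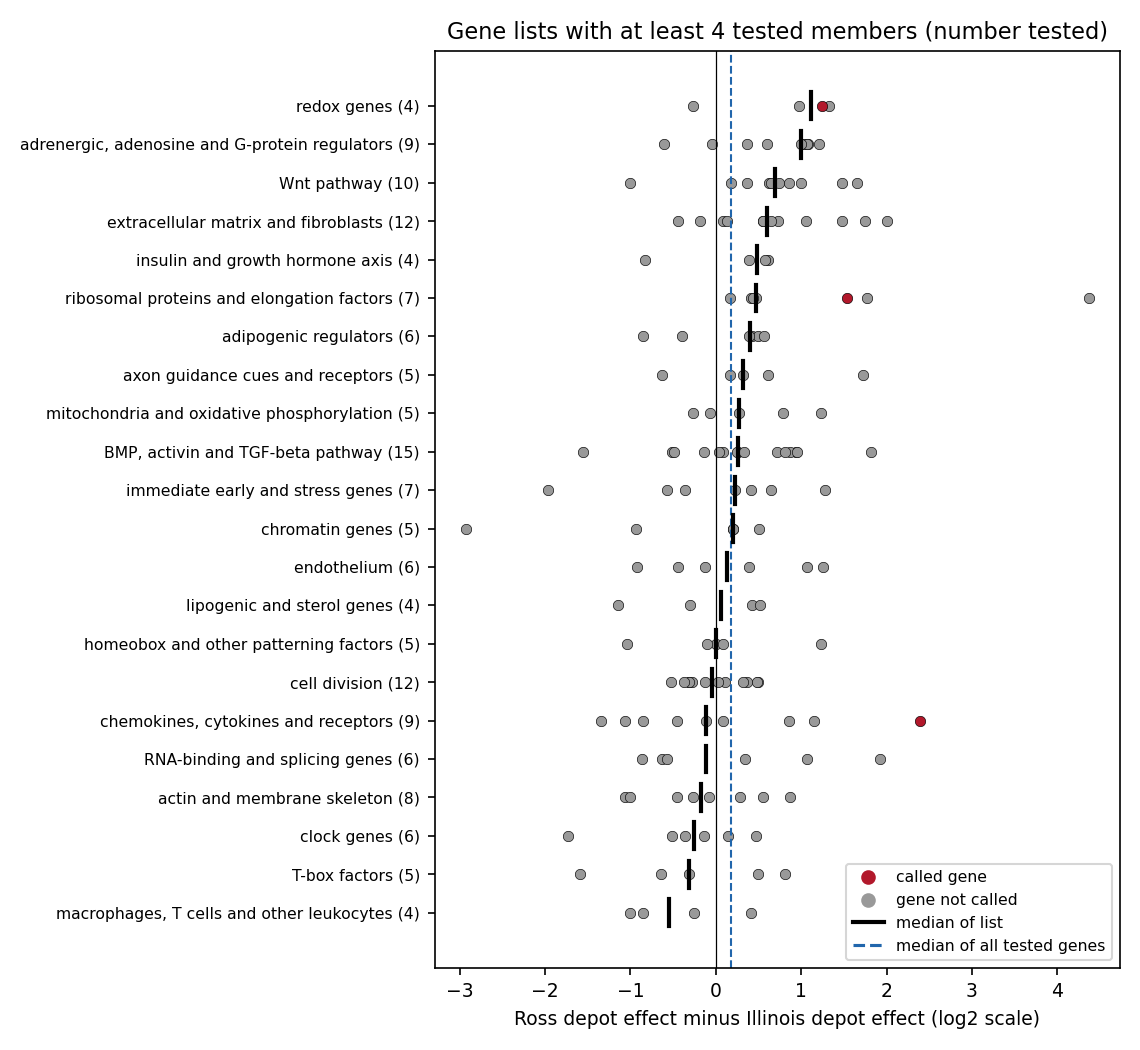
Difference of depot effects in log2 units for each tested gene of the lists with at least 4 tested members, with a bar for the list median and a dashed line for the median of all tested genes, 0.18. List medians run from -0.55 for macrophages, T cells and other leukocytes to 1.11 for redox genes, and the 3 called genes of these lists are drawn in red.

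On the negative side, 0 genes passed as deposited, and genes of the lowest p in that direction are given without a call. SULT1B1, a sulfotransferase, was listed at 0.001 in all 4 Ross cardiac libraries and at 0.001, 38.4, 63.0 and 43.9 FPKM in the Ross abdominal libraries. It was at 0.001 in 4 of 8 Illinois cardiac libraries, with 43.6 FPKM the highest, and in 6 of 7 Illinois abdominal libraries, with 37.2 FPKM in the other. A listed 0.001 beside values of this size need not be a measured level, and no fold is given. IFRD1, a transcriptional co-regulator first known from muscle cell differentiation, had 76.8, 55.1, 22.2 and 37.6 FPKM in Ross cardiac and 109, 104, 129.7 and 86.8 FPKM in Ross abdominal libraries. Illinois libraries held 43.6 to 163 FPKM with a median of 96.0 in cardiac and 72.4 to 115 FPKM with a median of 98.8 in abdominal fat. The difference was -1.24 (SE 0.44, adjusted p = 0.108), and under the 3 scalings it was -1.46 to -1.55 and passed (adjusted p 0.0167 to 0.0465). It also passed with the Ross libraries of Fall 12 in place (-2.08, adjusted p = 0.0335). HNRNPH1, a splicing regulator named after its values were seen, was also called as lower under all 3 scalings (-0.80 to -1.15), and its difference as deposited was -0.58 (adjusted p = 0.185).

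ACTN1, ADD3 and PITX1 also had negative differences, and none of them was called as deposited. Their lists did not share 1 direction. Of 8 tested genes of the actin and membrane skeleton, 3 were positive, with a median of -0.18. Of 5 tested homeobox and other patterning factors, 3 were positive, with a median of 0.0044. As deposited, 64.2% of all 427 tested genes were positive, with a median of 0.18. ACTN1, which links actin filaments, had 23.9, 30.2, 49.9 and 22.9 FPKM in Ross cardiac and 71.5, 100.02, 46.5 and 66.5 FPKM in Ross abdominal libraries, against medians of 26.1 FPKM in Illinois cardiac and 25.8 FPKM in Illinois abdominal fat. Its difference was -1.005 (SE 0.39, adjusted p = 0.144). ADD3, a protein of the membrane skeleton, had a difference of -1.06 (adjusted p = 0.165), which passed with the Ross libraries of Fall 12 in place (-1.70, adjusted p = 0.0429) and over all 31 libraries with a trial term (-1.38, adjusted p = 0.0236). Its level was 51.1 ± 15.4 FPKM in Ross abdominal and 22.0 ± 9.84 FPKM in Illinois abdominal fat (SD, n = 4 and 7). PITX1, a homeobox factor of the hindlimb, had 6.37, 9.37, 10.5 and 4.63 FPKM in Ross abdominal and 0.256 to 5.13 FPKM in Illinois abdominal libraries, and at most 0.192 FPKM in Ross cardiac and 0.094 FPKM in Illinois cardiac libraries. Its difference of -1.04 did not pass (adjusted p = 0.165).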

How the data were processed

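RNA-seq values of abdominal and cardiac fat were compared in 23 libraries of the Fall 13 trial. Strand-specific libraries were made from polyA RNA, per the labels' protocols. The submitters' processing notes name Bowtie, TopHat and Cufflinks, and tool versions, build and annotation were not given in the sources used here. With no unit named in the file header, the deposited values were read as FPKM because Cufflinks reports that unit and their range fits it. FPKM divides by each library's own total, so an abundant gene lowers the values of the others.

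Of 567 gene lines, 566 were complete, and dropping the duplicate lines of EEF1A1 and HOXA3, 2 in all, left 564 genes. Genes beyond them were not analysed here. A value of 0.001 or below, a floor, stood in 1691 cells of the 23 libraries. There, 45 genes had both a floor value and a value of at least 5 FPKM within 1 group. Of the Entrez numbers, 562 matched the RefSeq gene table (assembly GRCg7b), and 541 carried the symbol used here.

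Values were analysed as log2(FPKM + 1) with limma 3.58.1 (R 4.3.3, statmod 1.5.0), as 4 group means that share 1 estimate of the spread, with a trend and robust moderation. Changes of low genes come out too small on this scale. Genes that reached 1 FPKM in 4 or more libraries were tested, two-sided, with Benjamini-Hochberg adjustment, and called at an adjusted p below 0.05. The steps were tested on simulated data. The total depth is unknown. Relative depth came from low values of 97 genes, of which 97.4% of 1318 lay within 0.05 of a whole number of fragments, and 1 fragment stood for about 0.0322 FPKM at a relative depth of 1. It shows relative precision only.

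Named genes were the called genes of up to 12 largest differences each way whose mean reached 5 FPKM in a group, completed to 6 by the lowest p, up to 4 called genes of each list, and PPARG, FABP4, TBX20 and CASQ2. Values of 1 gene named by it are left out here. The members and lists were chosen with earlier results of these data known. Alternatives were 2 pseudocounts, 3 filters, 3 scalings, plain moderation, library weights, leaving libraries out, the Fall 12 libraries and relative depth as a covariate. The replicate block and leaving out single values at 0.001 were added after seeing the data.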

Additional observations from a re-analysis of the deposited data

Results flagged for a closer look

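The 6 called genes are those whose depot effect differed between the lines by the test of the difference itself: CXCL12 (2.39), CAV1 (1.58), RPL35 (1.53), PCBD2 (1.35), MRPL23 (1.25) and PARK7 (1.24), in log2 units. Single libraries far from the rest of their group were looked for in 115 combinations of a named gene and a group. Dixon's test found 12. Its chance rate of about 1 in 20 assumes normally distributed values, which was not tested, so no excess of outliers is claimed. CAV1 had its lowest Ross abdominal value, 147 FPKM, in library 1198. That library also had the highest Ross abdominal value of TBX20, 0.471 FPKM. Ross cardiac library 1206 held the highest values of its group for TBX20, 12.0 FPKM, and NRP2, 18.1 FPKM. Illinois cardiac library 1112 was 1 of the 2 of highest muscle signal. It held the highest values of its group for NRP2, 14.9 FPKM, and RGS2, 51.1 FPKM. CELF1 stood apart at 5.57 FPKM in Ross abdominal library 1196 and, as the lowest value, at 1.72 FPKM in Illinois cardiac library 1109. QSOX1 reached 93.3 FPKM in Ross cardiac library 1204, ADD3 117 FPKM in Illinois cardiac library 1108, and RGS2 125 FPKM in Illinois abdominal library 1094. SULT1B1 had 37.2 FPKM in Illinois abdominal library 1096 and was at 0.001 in the other 6.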

How the results depend on the processing

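Of the 6 genes called with limma, CXCL12 was called in 36, CAV1 in 37, RPL35 in 32, PCBD2 in 37, MRPL23 in 37 and PARK7 in 38 of 39 alternatives. Of these 39, 23 only left out 1 library of the same data, so the tallies are not independent checks. CXCL12 was not called with the Ross libraries of Fall 12 in place, over all 31 libraries with a trial term or with relative depth as a covariate. The number called was 10, all positive, with library weights. It was 46, with 36 positive and 10 negative, over all 31 libraries with a trial term, and 20, with 11 positive and 9 negative, with the Ross libraries of Fall 12 in place of those of Fall 13. It was 0, with 0 positive, with relative depth as a covariate (41 genes at an unadjusted p below 0.05). It was 25, with 23 positive and 2 negative, with single values at 0.001 left out. Negative calls numbered 1 with no filter on low values, 2, 4 and 3 under upper quartile, quantile and median ratio scaling, and 1 without Illinois cardiac libraries 1107 and 1112. Leaving out 1 library at a time gave 4 to 17 called genes, 4 to 17 of them positive and 0 to 1 negative. Counts beyond 1.5 times that of all libraries came without Illinois abdominal 1096 (17), Illinois cardiac 1110 (17) and 1111 (11) and Ross cardiac 1205 (14). The causes were not tested.

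With the Ross libraries of Fall 12 in place, 4 named genes turned sign, none of them past the threshold: CXCL12 to -0.20, PITX1 to 0.53, CASQ2 to 0.83 and QKI to -0.17. The share of positive differences, 64.2% as deposited, was 50.1% with upper quartile scaling, 52.7% with quantile normalization and 45.2% with median ratio scaling. The positive majority thus depended on the scaling, although the number of positive differences stayed within 1.5 times 274 in every alternative. A second number in the column headers is shared by 1 abdominal and 1 cardiac library in 11 pairs, 4 of Ross and 7 of Illinois, and the headers do not say what it counts. Deviations from the group means correlated by -0.11 to 0.46 within these pairs, over 0.1 in 8 of 11. Of the 11 abdominal libraries, 3 correlated best with their own number. In groups this small these values cannot exclude that the number pairs the libraries. The main test treated the libraries as unpaired because neither labels nor headers name a pairing. With that number as a replicate block, and without the unpaired Illinois cardiac library 1107, 15 genes were called, 15 of them positive, the 6 and S100A6, RGS3, RGS4, QSOX1 and TIMP2 among them (adjusted p 0.0399 to 0.0492 for these 5). Depth limits the low values most: at a relative depth of 0.523, the lowest, 1 fragment weighs more than in any other library of the trial.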
